A study of Caenorhabditis elegans with 4 samples.

Results

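The leading zip-8 regions of Caenorhabditis elegans embryos are the places that stood near the head of both ChIP-seq replicate peak lists. They were chosen by peak number: a peak of the authors' combined list was taken as leading when it overlapped, by at least 1 bp, a peak numbered 600 or lower in ChIP replicate 1 and a peak numbered 600 or lower in ChIP replicate 2. This held for 297 of the 2237 combined peaks, or 13.3%, which formed 288 distinct regions once overlapping entries were joined. The number is part of each peak's name in the deposited lists and serves here as the order of peaks within a list, although no header calls it a rank. At all 297 the lowest-numbered peak of each replicate carried the highest deposited score of its list. The score was thus tied among them and gives no order inside the set, which rests on the number alone. No such count is given for the remaining peaks, so the highest score is not shown to be particular to the leading regions. The remaining 1940 combined peaks (1915 distinct regions), 1652 of which had a partner in both replicates, are the set beside which the leading regions are described.

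ChIP-seq finds the DNA that a protein sits on by crosslinking it to chromatin, collecting it with an antibody and sequencing the attached fragments. The target was F23F12.9, the product of zip-8, tagged at its C-terminal end with GFP and collected with anti-GFP antibodies from embryos of strain OP327 fixed in 2% formaldehyde. The strain carries the transgene wgIs102, introduced by bombardment, and was raised at 20 °C as a mixed population of males and hermaphrodites. The labels write its background allele both as unc327(ed3) and as unc-119(ed3), and ChIP and input samples share all of this. There were 2 ChIP and 2 input samples. A peak list was analysed for each ChIP sample, and no values of the inputs or of an untagged strain entered. The tagged protein came from the transgene, so sites reflect the level and tissues that this transgene supports, and whole embryos mix all cell types.

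zip-8 encodes a basic leucine zipper (bZIP) protein. Members of this family pair through the zipper, a coiled coil, and grip DNA with the adjoining basic stretch, so that each dimer reads a short motif on both strands. Worm autosomes have gene-rich central portions with little recombination and arms that recombine more and hold more repeats, while the X is more even along its length. In embryo ChIP experiments on worms, many factors share a set of strongly occupied places, and a strong signal need not mean a site read by one factor's own motif. No sequence or gene annotation of the lists' build, WormBase WS220, was used here. The regions are therefore named by position, 1-based and inclusive on WS220, with no statement on genes, exons or motifs. Whether a leading region lies at the zip-8 locus itself, on chromosome III, was not tested, and the transgene adds copies of that locus.

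The rule drew from the very head of the combined list. All 50 of its first 50 peaks were leading, as were 44 of the next 50, 77 of numbers 101 to 200 and 52 of numbers 201 to 300. Only 3 of numbers 501 to 600 belonged, and 5 lay beyond number 600. Each of these 5 overlapped a lower-numbered leading entry that met the same replicate peaks. The highest, at chromosome I 3507593 to 3508072, was number 2081 in the combined list. It overlapped combined number 261, and both entries met the same replicate peaks, numbers 296 and 284. The median leading region was number 165 in the combined list, 194 in replicate 1 and 206 in replicate 2. These numbers chose the regions and are given as a description.

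**Figure D1:**
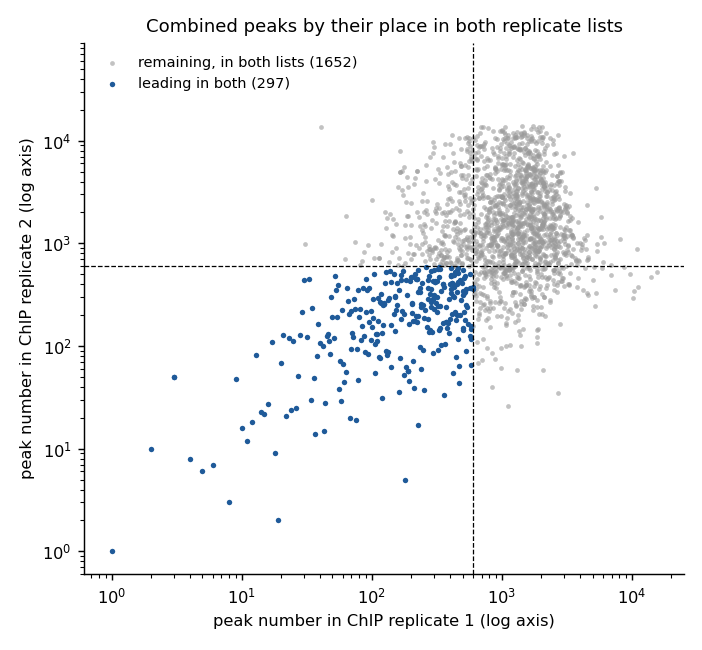
Each point is a combined peak with a partner in both replicates, placed by the lowest number of its overlapping peaks in ChIP replicate 1 (horizontal, log axis) and replicate 2 (vertical, log axis). The dashed lines mark number 600 in each list, and the 297 leading peaks fill the lower left corner by construction, with 1652 others outside it.

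Each replicate placed about as many low-numbered peaks outside this set as inside it. Of the 589 nuclear peaks with leading numbers in replicate 1, 290 (49.2%; 95% Wilson interval 45.2 to 53.3%) met a leading region. Another 267 had a replicate 2 partner that stood further down, at a median number of 1495, and 32 had no partner there. In replicate 2, 299 of 582 (51.4%; interval 47.3 to 55.4%) met a leading region. By their own replicate 1 partners, 297 of the 582 had one with a leading number, 273 had one further down, at a median number of 1324, and 12 had none. All 589 of replicate 1 lay in the combined list, against 562 of 582 of replicate 2. The intervals cover counting error only, and read depth is unknown because the lists hold no counts.

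The order inside the set differed between replicates. The number was lower in replicate 1 for 162 of the 297 peaks, lower in replicate 2 for 132 and equal for 3. The larger number was a median of 1.93 times the smaller, 156 peaks (52.5%) had numbers within 2-fold of each other, and 8 were more than 10-fold apart. Where they disagreed most, the peak on X at 14486321 to 14486711 was number 181 in replicate 1 and number 5 in replicate 2. On chromosome I, 2273072 to 2273649 was number 3 in replicate 1 and number 50 in replicate 2, and a second X region at 3957478 to 3957799 was number 30 in replicate 1 and number 437 in replicate 2. Of the 3 regions with the largest ratios, 2 were thus on X, 1 in favour of each replicate, where X held 38 of all 297 leading peaks. So few regions do not bear on X as a whole.

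By the larger of its numbers in both replicates, the first region lay on chromosome II at 2997558 to 2998439, number 1 in both lists and 882 bp wide. Next came V at 17845628 to 17845976, with numbers 5 in replicate 1 and 6 in replicate 2, and IV at 12689291 to 12689662, with numbers 6 and 7. The ninth, on II at 12966232 to 12966587, had numbers 12 and 18, and its replicate midpoints were 2 bp apart. The tenth, on I at 2858721 to 2859070, had numbers 18 and 9 with midpoints 2.5 bp apart. The first 10 held 3 regions on I, 3 on IV, 2 on II and 1 each on III and V. The first on X, at 15115745 to 15116044, followed with numbers 106 and 55. At the limit, the last 3 regions inside had larger numbers of 593 (IV, 560872 to 561136), 599 (V, 4753294 to 4753773) and 600 (I, 2739451 to 2739696). The first 3 outside had 602 (I, 6734383 to 6734631), 604 (I, 9659102 to 9659307) and 604 (X, 6413671 to 6413821), so nothing separated the sets at that point.

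Leading regions were spread over all 6 nuclear chromosomes, with more on I and fewer on V than the remaining peaks. Chromosome I held 73 of them (24.6%; interval 20 to 29.8%) against 18.9% of the remaining peaks, a difference of 5.71 percentage points (95% Newcombe interval 0.82 to 11.2). Chromosome V held 42 (14.1%; interval 10.6 to 18.6%) against 20.2%, a difference of -6.01 points (interval -9.97 to -1.27). Chromosome III held 59, or 19.9% against 16%, and the interval of that difference ran from -0.59 to 9.04 points. With the limit at 1000 the difference on III was 5.97 points (interval 2.26 to 10.0) and that on I was 3.62 points (interval -0.24 to 7.77). Chosen on replicate 2 alone or on replicate 1 alone, III differed by 4.08 points (interval 0.53 to 7.92) and 4.21 points (interval 0.72 to 7.95). Those of II (38 leading peaks), IV (47) and X (38) also included 0. Read the other way, 16.6% of the combined peaks of I were leading, 16% of III, 13.5% of IV, 12.2% of II, 11.3% of X and 9.7% of V, beside 13.3% overall.

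Within the replicate lists, the shares of I and V stood apart less in replicate 2 than in replicate 1. In replicate 1, chromosome I held 23.3% of the nuclear leading peaks, 18.9% of numbers 601 to 1000 and 17% of numbers 1001 to 2237. In replicate 2 it held 20.3%, 21.1% and 21%, so the leading peaks of that list had no excess on I over those later bands. Over all nuclear peaks chromosome I held 16.7% in replicate 1 and 18% in replicate 2. Inside the leading numbers of replicate 2 it held 23.3% of numbers 1 to 100 and 22.1% of 101 to 200. It held 18.8% of numbers 201 to 400 and 19.5% of 401 to 600. Chromosome V held 16.5% of the leading peaks of replicate 1, against 19.2% and 21.9% of the later bands, and 16.7% in replicate 2, against 17.3% and 17.4%. When the combined peaks were chosen on replicate 2 alone, the excess on I fell to 1.07 points (interval -2.61 to 5.02) and the deficit on V to -3.05 points (interval -6.55 to 0.74). No enrichment test was run: regions are not replicates, many lie near one another, and intervals that take them as independent are narrower than they should be.

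**Figure D2:**
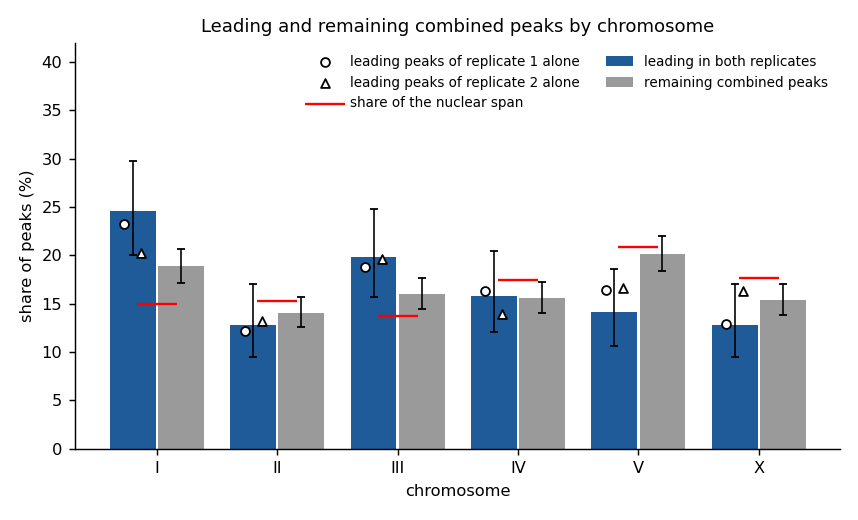
Bars give the share (%) of the 297 leading peaks and of the 1940 remaining combined peaks on each chromosome, with 95% Wilson intervals. Open circles and triangles give the leading peaks of ChIP replicates 1 and 2 alone and red lines the share of the nuclear span; the blue bar is above the grey one on I (24.6% against 18.9%) and below it on V (14.1% against 20.2%).

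The share of X was lower in the first part of the leading set than in the last. With the peaks sorted by the larger of both numbers and divided into 3 parts of 99, X held 6 peaks of the first part (6.06%; interval 2.81 to 12.6%), 9 of the second (9.09%; interval 4.86 to 16.4%) and 23 of the last (23.2%; interval 16 to 32.5%). X makes up 17.7% of the nuclear span. The order that divides the set is made of the numbers that chose it, so these counts are a description. Chromosome I went the other way in its counts, with 28, 24 and 21, though its intervals overlapped throughout. The median larger number was 430 for the 38 leading peaks on X and 278 for the 259 on autosomes. With the limit set at 300 in place of 600, X held 7.14% of 154 leading peaks, and with a reciprocal overlap of 50% it held 7.25% of 138; these sets draw on the same replicate peaks and are not separate support. The division into parts was chosen after values had been seen.

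Both replicate lists started low on X. Among nuclear peaks numbered 1 to 100, X held 5 of 99 in replicate 1 (5.05%; interval 2.18 to 11.3%) and 9 of 90 in replicate 2 (10%; interval 5.35 to 17.9%). Among numbers 401 to 600 the shares were 16.8% and 19.5%. Beyond number 1000, up to 2237, they were 16% and 16.4%. The leading sets were drawn from these same numbers. Replicate 1 did not climb evenly, with 14.3% in numbers 101 to 200 and 12.2% in numbers 201 to 400. In the combined list X held 6 of the first 100, 17 of the next 100, 15% of numbers 201 to 400 and 12.5% of numbers 401 to 600 (interval 8.61 to 17.8%).

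**Figure D3:**
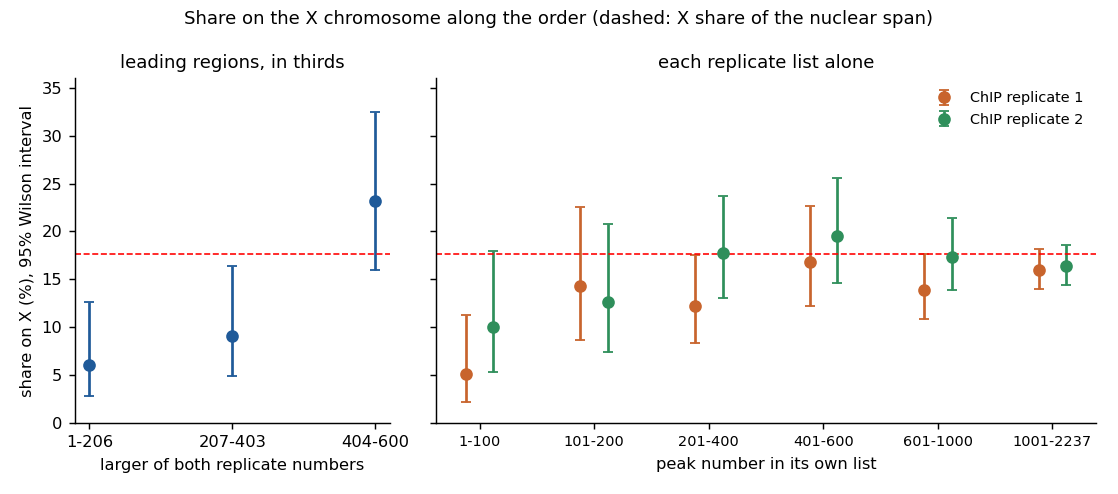
Points give the share (%) on the X chromosome with 95% Wilson intervals, on the left for 3 equal parts of the 297 leading peaks sorted by the larger of both replicate numbers, on the right for bands of peak number in each replicate list alone. The dashed line is the X share of the nuclear span (17.7%); the first 2 points on the left, 6.06% and 9.09%, lie below it and the last, 23.2%, above.

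Along the chromosomes, the share of leading regions in the centre depended on how they were chosen. The middle 33.3% of each chromosome's span, called the centre here, held 87 of them (29.3%; interval 24.4 to 34.7%) against 30.8% of the remaining peaks, a difference of -1.53 points (interval -6.85 to 4.25). With the limit at 300 the difference was -8.48 points (interval -14.7 to -0.98), and with a reciprocal overlap of 50% it was -11 points (interval -17.2 to -3.29). With the limit at 1000 it was 1.15 points (interval -3.27 to 5.76). Chosen on replicate 2 alone it was 2.85 points (interval -1.5 to 7.36), and on replicate 1 alone -2.42 points (interval -6.58 to 1.92). With the middle 50% as the centre it was -0.11 points (interval -6.13 to 5.99). The nuclear leading peaks had 28.9% there in replicate 1 and 32.6% in replicate 2. By chromosome the middle held from 19.1% of the leading regions on IV (9 of 47) to 37.3% on III (22 of 59), and every interval of the difference from the remaining peaks included 0. The span to the left of the centre held 116 leading regions (39.1%, against 35.8% of the remaining peaks). That to the right held 94 (31.6%, against 33.4%).

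Within the set, fewer of the first regions than of the last lay in the centre. The first part by order had 21 of 99 there (21.2%; interval 14.3 to 30.3%), the second 31 and the last 35 (35.4%; interval 26.6 to 45.2%), with overlapping intervals. In the replicate lists alone the first 100 numbers had 17.2% (replicate 1) and 24.4% (replicate 2) in the centre, and numbers 401 to 600 had 27.6% and 38%. Among combined peaks, 17 of the first 100 lay in the centre and 71 of the 200 numbered 201 to 400 (35.5%; interval 29.2 to 42.3%).

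In bins of 1 Mb the median count of leading peaks was 3, and 15 of 103 bins had none. The fullest was 2 to 3 Mb of chromosome I, with 14 leading peaks and also, of all bins, the most remaining peaks (41), followed by 0 to 1 Mb of the same chromosome with 10. Bins with 8 or more numbered 6, on I, III and IV.

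A larger share of leading than of remaining regions had another combined region close by. Of the 288 distinct leading regions, 108 (37.5%; interval 32.1 to 43.2%) had one within 5 kb, against 26.7% of the 1915 remaining regions, a difference of 10.8 points (interval 5.06 to 16.9). The median gap to the nearest other region was 8840 bp for leading and 13236 bp for remaining regions. Gaps are measured between interval ends. The neighbours were mostly not leading themselves: for 17 of the 108 the nearest was another leading region (15.7%; interval 10.1 to 23.8%), where leading regions make up 13.1% of all distinct regions. For the remaining regions with a neighbour within 5 kb that share was 18.8% (interval 15.6 to 22.4%). From one leading region to the next the median gap was 119751 bp.

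The same direction appeared in each replicate list. Here the leading regions are those of each list's own leading numbers, whether or not the other replicate placed them there too. The first 2237 nuclear peaks of each list were joined where they overlapped. In replicate 1, 29.4% of 586 such regions (interval 25.8 to 33.2%) had another within 5 kb. Of the 1612 others it was 24.3% (interval 22.2 to 26.4%), and these intervals overlapped. In replicate 2 the shares were 38.1% of 562 (interval 34.2 to 42.2%) and 30.1% of 1541 (interval 27.9 to 32.4%). Within the set leading in both replicates the counts in the combined list were alike along the order, with 38, 35 and 39 of 99 peaks in the first, second and last part.

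Chains of regions with gaps under 5 kb joined more than 1 leading region in 10 places. The richest, on I at 2599454 to 2612058, held 5 regions over 12605 bp, 3 of them leading. Another on X at 10203514 to 10210412 held 4 regions, 3 of them leading. The closest pair of leading regions lay on V, at 9556227 to 9556446 and 9556487 to 9556672, with 40 bp between them. The next, on II at 4394462 to 4394697 and 4394769 to 4394988, had 71 bp between them. In both pairs each replicate list had 1 peak lying over both regions, numbers 356 and 404 at the pair on V and numbers 376 and 170 at that on II, so that each of these 4 regions entered the set through a peak it shares. The next closest pair, on X at 10203514 to 10203734 and 10204327 to 10204617, was 592 bp apart and had separate replicate peaks. At the other extreme, the region on X at 88964 to 89255, combined number 148, lay 282504 bp from any other combined region.

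Leading regions were narrower than the rest. Their median width was 286 bp (95% order-statistic interval 275 to 293), with quartiles of 241 and 328 bp, whereas the median of the remaining peaks was 480 bp. That value is the most common width of the combined list: 76% of the remaining peaks had it, and 10 of the 297 leading peaks (3.37%; interval 1.84 to 6.09%). Peaks away from the common width were wider in the leading set, with a median of 284 bp against 179.5 bp. Width can follow from the strength that the rule used, so these values carry no test.

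Width fell steadily with order until the common width took over. In the combined list the median was 346.5 bp for the first 50 peaks, 310 bp for the next 50, 241.5 bp for numbers 201 to 300 and 180.5 bp for numbers 501 to 600. Of numbers 801 to 1000, 76.5% were at 480 bp. In replicate 1 the median fell from 284.5 bp in the first 50 numbers to 174 bp in numbers 201 to 300, and 60% of numbers 301 to 400 were at that list's common width of 384 bp. In replicate 2 it was 297 bp in the first 50 and 220 bp in the next 50, and 73.9% of numbers 101 to 150 were already at 600 bp. The lists thus went over to their common widths at different places in the order. Of the leading regions, 81 (27.3%) rested on a replicate 1 peak of the common width and 211 (71%) on such a replicate 2 peak. These shares were higher among the remaining peaks with a partner in the list: 92.7% of 1937 in replicate 1 and 99.2% of 1655 in replicate 2.

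**Figure D4:**
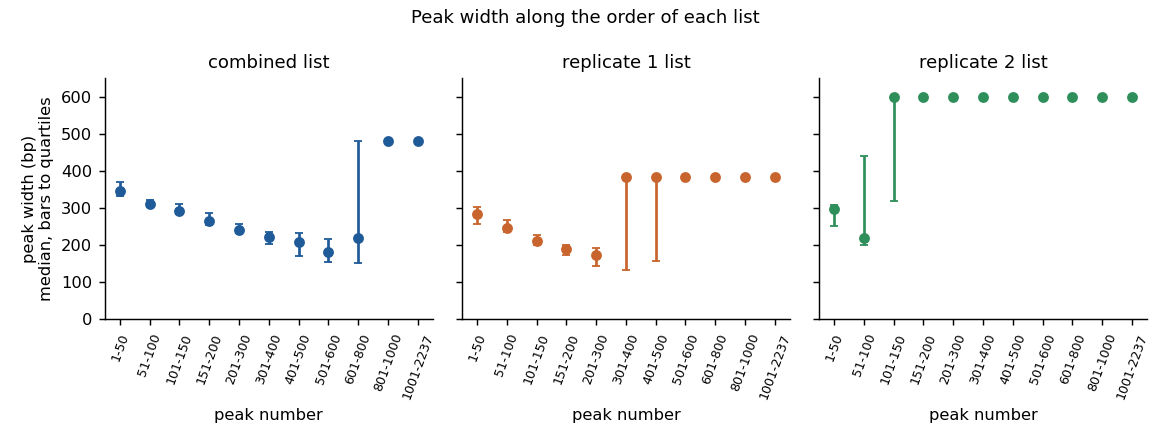
Points give the median peak width (bp) in bands of peak number for the combined list and for ChIP replicates 1 and 2, with bars to the quartiles (nuclear peaks). In the combined list the median falls from 346.5 bp in the first 50 numbers to 180.5 bp in numbers 501 to 600. It is 220 bp in numbers 601 to 800 and 480 bp in numbers 801 to 1000. Replicate 1 reaches 384 bp and replicate 2 reaches 600 bp earlier in the order.

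A few leading regions were much wider. The widest, on III at 7814232 to 7816962, spanned 2731 bp, was entered 3 times in the combined list and had replicate widths of 2658 and 2767 bp, with midpoints 0.5 bp apart. It was number 192 in replicate 1 and number 57 in replicate 2, so width and order did not go together there. The second was the first region on II (882 bp), whose peak was 753 bp wide in replicate 1 and 421 bp in replicate 2. The third, on III at 11612530 to 11613252 (723 bp), joined 2 overlapping entries. In all, 8 distinct leading regions were made of 17 overlapping entries. Together the leading regions covered 86.7 kb, or 9.89% of the 877 kb of the combined list.

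The midpoints of the leading regions' replicate peaks were a median of 17 bp apart (order-statistic interval 15 to 20; quartiles 8 and 32.5 bp), against 32 bp (interval 30 to 34) for the 1652 remaining peaks found in both. Within 50 bp lay 252 of 297 (84.8%; interval 80.3 to 88.5%) against 67.3% of the others, and the largest distance was 453 bp. Where both replicate peaks had their list's common width, the median was 25 bp (interval 18 to 37) over 65 leading regions and 32 bp over 1511 others, and 67.7% and 66.8% lay within 50 bp. Over these peaks the sets differed less than over all. Combined midpoints were a median of 7.5 bp from those of replicate 1 and 12.5 bp from those of replicate 2.

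Weaker replicate peaks, a name used here for late numbers only, were denser beside the leading regions. These are nuclear peaks numbered above 600 that overlap no combined peak, 18468 in replicate 1 and 11451 in replicate 2. Within 5 kb of the leading regions' ends there were on average 2.5 of them in replicate 1 and 1.7 in replicate 2, against 2.16 and 1.41 at the remaining peaks. In replicate 1, 91.9% of leading regions had at least 1 (interval 88.3 to 94.5%) against 87.2% (interval 85.6 to 88.6%), and in replicate 2, 73.4% (interval 68.1 to 78.1%) against 71.3%. Both replicates placed one there for 67.7% of leading regions (interval 62.2 to 72.7%) and 63.8% of the remaining peaks (interval 61.6 to 65.9%), with overlapping intervals. Those with 4 or more numbered 74 in replicate 1 (24.9%, against 18.2%) and 36 in replicate 2 (12.1%, against 7.63%). The most were found at I 7198861 to 7199181, combined number 20 and number 24 in both replicates, with 9 in replicate 1 and 3 in replicate 2. III 10902886 to 10903245 had 7 and 5, and I 14144996 to 14145283 had 3 and 9.

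The excess was greatest close to the region. At 0.5 to 1 kb from its centre, replicate 1 had 0.397 weaker peaks per kb and leading region (exact Poisson interval 0.329 to 0.476) against 0.248 (interval 0.227 to 0.272) at the remaining peaks. At 1 to 2 kb the values were 0.283 (interval 0.242 to 0.329) and 0.235 (interval 0.22 to 0.25), and at 5 to 10 kb 0.218 (interval 0.202 to 0.236) and 0.202 (interval 0.196 to 0.208). In replicate 2 the values at 0.5 to 1 kb were 0.199 (interval 0.151 to 0.256) and 0.112 (interval 0.0975 to 0.128). Those at 1 to 2 kb were 0.175 (interval 0.143 to 0.212) and 0.156 (interval 0.144 to 0.169), with overlapping intervals. At 2 to 5 kb they were 0.165 (interval 0.147 to 0.185) and 0.141 (interval 0.134 to 0.148). Beyond 1 kb the excess in replicate 2 thus did not fall steadily with distance. Part of the near band is closed to peaks by width: at the median widths a replicate 2 peak of 600 bp can come no nearer than 443 bp to the centre of a leading region and 540 bp to that of a remaining one. For replicate 1 these distances were 335 and 432 bp, both inside 0.5 kb. The part of width in the replicate 2 difference was not tested. The nearest weaker replicate 1 peak within 5 kb had a median number of 10324 at leading and 11548 at remaining peaks, and in replicate 2 these were 7776.5 and 7657.

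**Figure D5:**
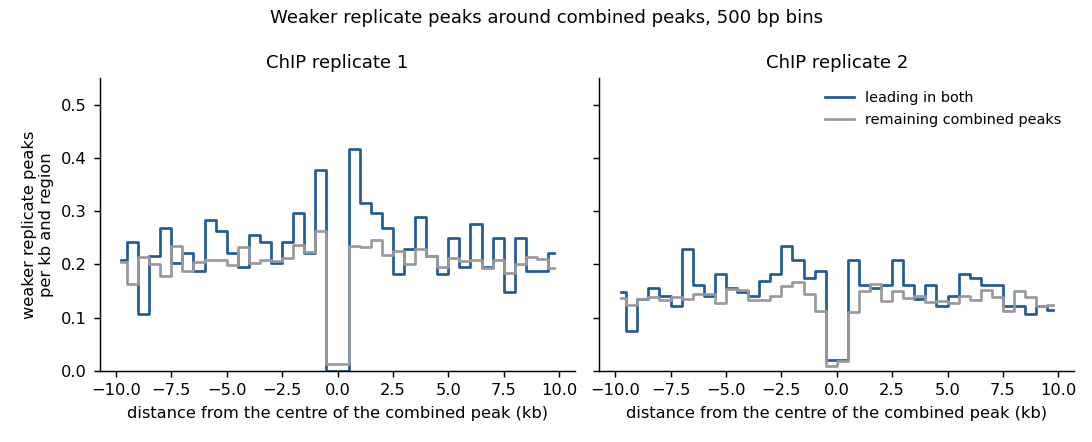
Lines give the mean number of weaker replicate peaks per kb and region in 500 bp bins of distance (kb) from the centre of the 297 leading and the 1940 remaining combined peaks, for each ChIP replicate. In replicate 1 the leading regions stand above the others at 0.5 to 1 kb (0.397 against 0.248), and the lines come together farther out (0.218 against 0.202 at 5 to 10 kb); the gap at the centre comes from leaving out peaks that overlap a combined peak.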

How the data were processed

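Peak lists of 2 ChIP samples and a combined list were analysed; no files of the 2 input samples were used. Per the file headers and source columns, the authors used SPP with IDR, a procedure that ranks peaks by agreement of replicates, on build WormBase WS220. The deposited score per peak has no stated unit, was constant in the combined list and was not used as a value. Software versions, thresholds, read depth and any pooling of reads were not given in the sources used for this work. Replicate origin is not stated, so the spread between replicates may be technical.

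Intervals were matched in Python 3.11.15 (scipy 1.17.1, pandas 2.3.3, numpy 2.4.6), and the functions were tested on simulated lists. Each chromosome span ended at the last peak in any list (total 100.238 Mb), and the centre is the middle 33.3%. Peaks on mitochondrial DNA were left out. Where several replicate peaks overlapped, the lowest number was used. Shares carry 95% Wilson intervals, differences Newcombe intervals, medians order-statistic intervals and rates exact Poisson intervals. All cover counting error only, and no test was run.

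Members and settings were chosen with earlier results of these data known. Regions were named by a fixed rule: the first 10 and the first per chromosome by the larger replicate number, the 3 on each side of the limit, and the 3 most extreme in width, gap, weaker neighbours and ratio of numbers, with the 3 closest pairs. The chains, 1 Mb bins, the 3 parts by order, number bands and the highest combined number were added after values had been seen. The gene table at hand was of build WBcel235, not that of the lists, and only the symbol zip-8 and its chromosome, III, were taken from it.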

Additional observations from a re-analysis of the deposited data

Results flagged for a closer look

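Peaks on mitochondrial DNA stood among the leading numbers of both replicates, a molecule that was kept out of all comparisons. They numbered 11 (replicate 1) and 18 (replicate 2), or 1.83% and 3% of numbers 1 to 600. The combined list held 0 mitochondrial peaks, so that none entered the leading set.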

How the results depend on the processing

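Across 20 values and 11 other settings, 128 of 154 recomputed values stayed within the interval (or 1.5-fold, for the count) of the value reported, and 26 moved. A value that stayed could still change side. Without replicate 1 the difference from the remaining peaks went from -2.57 to 1.34 points on X (interval -1.96 to 4.97). In the centre it went from -1.53 to 2.85 points (interval -1.5 to 7.36). All settings reuse the same lists, so the tally is not separate support. The number of leading peaks was 154 with the limit at 300, 527 at 1000 and 138 with a reciprocal overlap of 50%. With the limit at 300 the X share fell to 7.14% (-8.46 points from the remaining peaks, interval -12 to -3.05). The centre share fell to 22.7% (-8.48 points, interval -14.7 to -0.98), and the median width was 313 bp. Reciprocal overlap gave 7.25% (-8.28 points, interval -11.9 to -2.51), 20.3% (-11 points, interval -17.2 to -3.29), 322 bp and a midpoint distance of 13.5 bp. At 1000 the width was 257 bp. The middle 50% held 46.8% of leading peaks (-0.11 points from the remaining peaks, interval -6.13 to 5.99). Another combined region lay within 2 kb of 19.9% and within 10 kb of 52.5%. Counted over distinct regions, these shares were 19.8% and 52.4% for leading and 12.5% and 43.4% for remaining regions. Weaker peaks of both replicates lay within those gaps of 33.7% and 88.9% of leading peaks, and no such shares are given for the remaining peaks. The cause of these shifts was not tested, though wider gaps and centres hold more by construction. Without one replicate in the rule, the count ranged from 568 to 603, the width from 255 to 292 bp, the share with a near region from 31.0 to 39.1% and the midpoint distance from 21 to 22.5 bp. The differences on I and V kept their side under every setting run, but their intervals included 0 in some, among them without replicate 1. That on III also kept its side, and its interval left out 0 at limit 1000 and without either replicate. No paired analysis was possible because the inputs had no lists here and no test was run. How far read depth limits these values is unknown, since the lists hold no counts.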
